A study of Mus musculus with 4 samples.

Results

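Receptors of the ERBB family, proteins of the LRIG family and the ligand neuregulin 1 were examined in mouse somitic gastruloids. The transcription factor ZEB2 carries a degron tag in these gastruloids, which were grown with and without the degrader dTAG-13. The set holds 8 genes of the 24831 listed in the count tables: the receptors Egfr, Erbb2, Erbb3 and Erbb4, the regulators Lrig1, Lrig2 and Lrig3, and Nrg1. They were taken by gene symbol, and the symbols were chosen by a reading of the dTAG-13 and untreated levels of these same libraries, so every difference of these 8 genes between the groups is given as a description with no test. All 8 had enough reads to enter the fit over 13602 genes. Gastruloids are aggregates of embryonic stem cells that elongate and form presomitic tissue and somites in culture. Both groups came from the E14 triple reporter line, with an HA and FKBP12F36V degron tag on the endogenous Zeb2 gene, so the untreated gastruloids carry the tag too. Aggregates were begun from 300 sorted cells a well, treated after 48 h with 3 μM CHIR99021, which activates WNT signalling, and moved into 10% Matrigel at 96 h. The dTAG13 group (2 libraries) was given 100 nM dTAG-13, a small molecule that directs degron-tagged protein to destruction, at 72 and 96 h. It acts on the protein, so Zeb2 reads do not check the labels. Whole gastruloids of this 1 line were measured. The untreated group (2 libraries) had no such treatment in its labels, and the protocol names DMSO as the control. The labels do not say whether the libraries of a group came from separate cultures, and p-values therefore speak only to how these libraries varied, possibly for technical reasons.

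The 4 ERBB receptors are tyrosine kinases that sit in the plasma membrane and pair up when ligands of the EGF family bind. EGFR binds EGF and TGF-alpha, ERBB3 and ERBB4 bind neuregulins, and ERBB2 has no known ligand of its own and serves as the partner of the others. ERBB3 has little kinase activity and recruits PI3 kinase when phosphorylated by its partner. The LRIG proteins are membrane proteins with leucine-rich repeats and immunoglobulin-like domains, and LRIG1 is known to bind ERBB receptors and to promote their breakdown. In the embryo these receptors are known from epithelia, neural crest and the heart.

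Gene reads numbered 12230908 and 11491330 in the dTAG13 libraries, against 12716172 and 11566746 in the untreated libraries. Another 24.1% to 35.7% of reads fell outside genes, with the highest share in untreated replicate 1. Levels are given as CPM, reads per 1000000 of a library after scaling the libraries to each other by the TMM method, so that 1 read was worth 0.0753 to 0.0889 CPM. Intervals on counts hold counting error alone, because without molecular identifiers several reads may stem from 1 molecule.

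Per kilobase of exon, a scale that allows roughly for gene length, Erbb2 stood highest of the 8 with dTAG-13 and Lrig1 highest in untreated gastruloids. The length is that of all annotated exons together, from 1 transcript for Erbb3 to 18 for Nrg1. It can exceed the length of the transcripts present, so the order of genes is approximate. The dTAG13 means were 22.9 CPM per kb for Erbb2, 13.8 for Lrig3, 12.1 for Erbb3, 10.03 for Lrig1, 6.43 for Lrig2, 1.27 for Nrg1, 1.15 for Egfr and 0.0551 for Erbb4. In that order the libraries of Lrig3 and Erbb3, of Erbb3 and Lrig1, and of Nrg1 and Egfr overlapped. The untreated means were 17.8 CPM per kb for Lrig1, 15.5 for Erbb2, 15.2 for Lrig3, 6.76 for Lrig2, 5.26 for Erbb3, 1.77 for Nrg1, 0.850 for Egfr and 0.0695 for Erbb4, and only Erbb2 and Lrig3 overlapped between neighbours. On this scale Erbb3 held the third place with dTAG-13 and the fifth untreated, while Lrig1 held the fourth place with dTAG-13 and the first untreated. The level of Erbb2, averaged over all libraries, was above that of 79.1% of the 13262 tested genes with an exon length, that of Erbb3 above 57.4%, and that of Egfr above 15.5%.

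**Figure D1:**
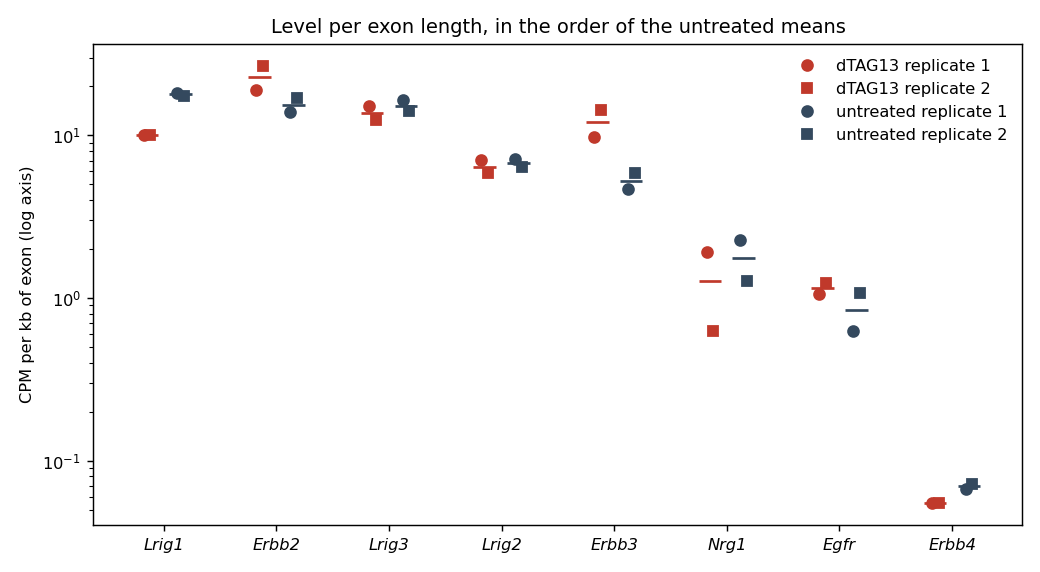
Level of each gene per kilobase of exon, in CPM per kb on a log axis, with the genes in the order of their untreated means. Points are libraries (circles replicate 1, squares replicate 2; dTAG13 left in red, untreated right in dark blue) and short lines are group means. Erbb4 lies far below the others, at 0.0551 with dTAG-13 and 0.0695 untreated.

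Among the receptors, Erbb3 and Erbb2 were higher in both dTAG13 libraries than in either untreated library, as were 14.4% of all genes tested. Egfr was higher on average with overlapping libraries, and Erbb4 was barely detected. Erbb3, on the minus strand of chromosome 10 (128567523 to 128589635 in GRCm38.p6), had 59.1 and 86.3 CPM in dTAG13 replicates 1 and 2, against 28.1 and 35.1 CPM in untreated replicates 1 and 2. The groups did not overlap, and the lower dTAG13 library stood well above the higher untreated one. The means were 72.7 ± 19.2 CPM with dTAG-13 and 31.6 ± 4.93 CPM untreated (SD, n = 2 each), a fitted log2 fold change of 1.20 ± 0.23 (SE), or 2.30-fold. Within replicate number 1 the difference was 1.06 on the log2 scale and within number 2 it was 1.29. In bulk RNA such as this, a difference in the number of cells of a type and a difference in RNA per cell cannot be told apart.

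Erbb2, the shared partner receptor, lies on the plus strand of chromosome 11 (98412484 to 98437716). It had 98.9 and 139 CPM in the dTAG13 libraries, against 72.9 and 88.3 CPM in the untreated libraries. The groups did not overlap, but the gap between dTAG13 replicate 1 and untreated replicate 2 was narrow. The means were 119 ± 28.6 CPM with dTAG-13 and 80.6 ± 10.9 CPM untreated, a log2 fold change of 0.56 ± 0.20. The fitted value was 0.28 without dTAG13 replicate 2, while that of Erbb3 was 0.88 without it.

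Egfr, also on the plus strand of chromosome 11 (16752203 to 16913907), had 12.0 and 14.0 CPM in the dTAG13 libraries, against 7.07 and 12.2 CPM in the untreated libraries. Untreated replicate 2 lay just above dTAG13 replicate 1, so the groups overlapped. The log2 fold change was 0.44 ± 0.33, becoming 0.082 when untreated replicate 1 was left out and 0.88 when untreated replicate 2 was, libraries that differed by 0.77 on the log2 scale. These values rest on 94 to 165 reads a library.

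Erbb4, a neuregulin receptor with an active kinase, spans 1076.7 kb on the minus strand of chromosome 1 (68031884 to 69108576). It had 8 and 8 reads in the dTAG13 libraries, against 11 and 10 reads in the untreated libraries, or 0.682 and 0.679 CPM against 0.828 and 0.889 CPM. Its 4 values are at the limit of detection: the 95% exact Poisson interval was 0.294 to 1.343 CPM in dTAG13 replicate 1 and 0.413 to 1.48 CPM in untreated replicate 1, so no difference was detectable at this depth. Erbb4 passed the filter on low counts through the untreated libraries, where it reached the minimum of 10 reads.

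**Figure D2:**
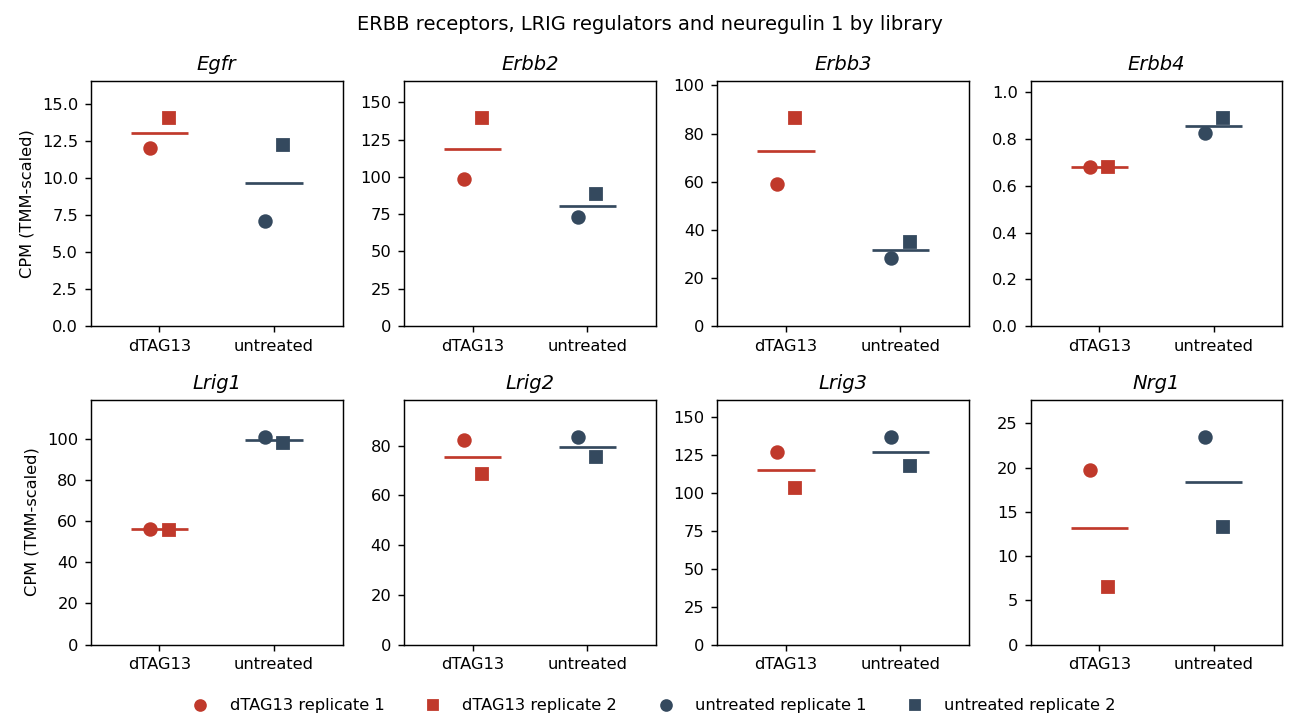
CPM of the 8 genes in each library, 1 panel a gene, each axis starting at 0. Circles are replicate 1 and squares replicate 2, red for dTAG13 and dark blue for untreated, and lines are group means. The libraries of the groups stand apart for Erbb2, Erbb3 and Lrig1 and, at 8 to 11 reads, for Erbb4, and overlap for Egfr, Lrig2, Lrig3 and Nrg1.

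Of the LRIG genes, Lrig1 was lower in both dTAG13 libraries than in either untreated one, as were 11.9% of all genes tested, while Lrig2 and Lrig3 differed by less than their spread. Lrig1, also known as a marker of stem cells in adult epithelia, lies on the minus strand of chromosome 6 (94604529 to 94700298). It had 56.3 and 55.7 CPM in the dTAG13 libraries, against 101 and 98.1 CPM in the untreated libraries. The groups did not overlap, and the libraries within each group lay close together. The means were 56.04 ± 0.422 CPM with dTAG-13 and 99.6 ± 2.02 CPM untreated (SD, n = 2 each). The fitted log2 fold change was -0.83 ± 0.13, or 1.78-fold lower. The difference was -0.84 within replicate number 1 and -0.81 within number 2, and it stayed between -0.85 and -0.82 when any single library was left out.

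Lrig2, in which mutations are known from a human bladder disorder, lies on the minus strand of chromosome 3 (104453980 to 104511918). It had 82.3 and 68.7 CPM in the dTAG13 libraries, against 83.5 and 75.3 CPM in the untreated libraries. Its groups overlapped, and the log2 fold change of -0.073 ± 0.15 became 0.032 without dTAG13 replicate 2 and -0.21 without dTAG13 replicate 1. Lrig3, known in mice from the development of the inner ear, lies on the plus strand of chromosome 10 (125966219 to 126015359), the chromosome of Erbb3. It had 127 and 103 CPM in the dTAG13 libraries, against 137 and 117 CPM in the untreated libraries. Its groups overlapped too, with replicate 1 the higher library in each, and its log2 fold change was -0.14 ± 0.16, ranging from -0.30 without dTAG13 replicate 1 to -0.023 without dTAG13 replicate 2. The centred profiles of Lrig2 and Lrig3 over the 4 libraries were the most alike of any pair among the 8 genes, with a root mean square difference of 0.045 on the log2 scale, against 0.36 between Lrig1 and Lrig3.

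Nrg1, the neuregulin that ERBB3 and ERBB4 bind, spans 1084.2 kb on the minus strand of chromosome 8 (31807452 to 32891609). It had 19.8 and 6.53 CPM in the dTAG13 libraries, against 23.5 and 13.2 CPM in the untreated libraries. Replicate 1 was the higher library in each group, the groups overlapped, and the libraries of a group differed by more than the groups did. The log2 fold change was -0.48 ± 0.61, with -0.25 within replicate number 1 and -1.0 within number 2, and it ranged from -1.49 without dTAG13 replicate 1 to 0.083 without dTAG13 replicate 2. Summed markers of endothelium, somites, heart, neurons and neural crest were also higher in replicate 1 of each group. Endothelial markers summed to 252 and 105 CPM in the dTAG13 libraries, against 288 and 89.2 CPM in the untreated libraries. Somite markers summed to 331 and 176 CPM in the dTAG13 libraries, against 489 and 278 CPM in the untreated libraries, and cardiac markers to 70.4 and 23.0 CPM in the dTAG13 libraries, against 60.7 and 19.6 CPM in the untreated libraries. Neuronal markers summed to 225 and 121 CPM in the dTAG13 libraries, against 153 and 106 CPM in the untreated libraries. The part of these tissues in the level of Nrg1 was not tested. For every 1000 CPM of the endothelial sum Nrg1 had 78.5 and 62.0 CPM in the dTAG13 libraries, against 81.4 and 149 CPM in the untreated libraries. For every 1000 CPM of the somite sum it had 59.8 and 37.2 CPM in the dTAG13 libraries, against 48.1 and 47.6 CPM in the untreated libraries. The first ratio was lower in both dTAG13 libraries. The second overlapped, being higher with dTAG-13 within replicate number 1 and lower within number 2.

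**Figure D3:**
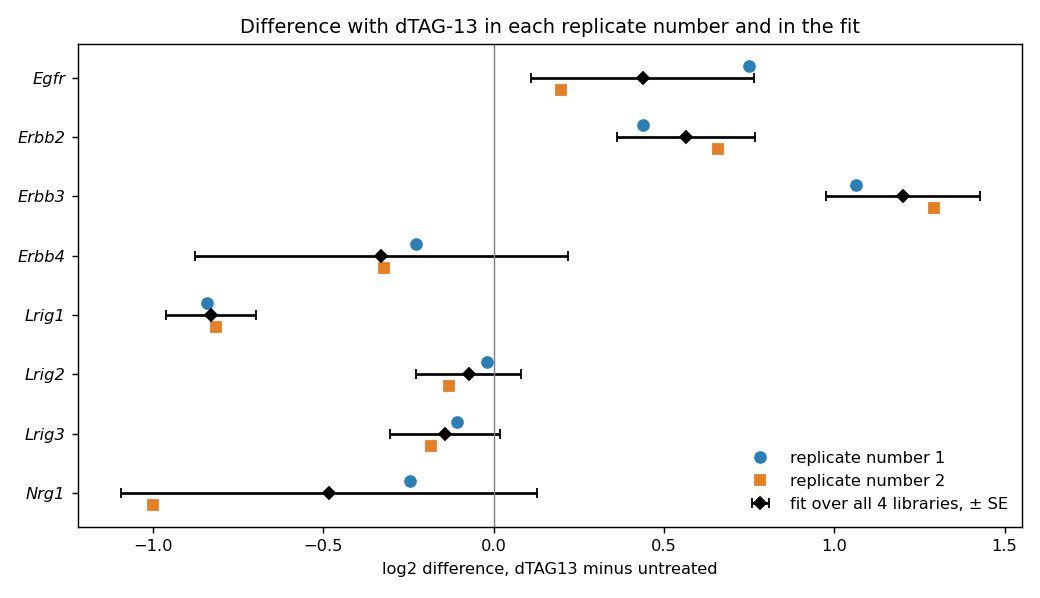
Log2 difference of dTAG13 minus untreated for each gene, with libraries paired by replicate number (blue circles number 1, orange squares number 2) and in the fit over all libraries (black diamonds, bars ± SE). Erbb3 lies at 1.06 and 1.29 and Lrig1 at -0.84 and -0.81 within the numbers, while Nrg1 lies at -0.25 and -1.0.

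Set against each other, the receptors that were well detected lay above untreated on average and the LRIG genes at or below it. Among these genes only Erbb2, Erbb3 and Lrig1 stood apart between the groups, while Egfr, Lrig2 and Lrig3 overlapped. The median log2 fold change was 0.50 over the 4 receptors, -0.14 over the 3 LRIG genes and 0.0040 over all genes tested. Summed over each class, the receptors had 170.6 and 240.3 CPM in the dTAG13 libraries, against 109 and 136 CPM in the untreated libraries. The LRIG genes summed to 265 and 228 CPM in the dTAG13 libraries, against 321 and 291 CPM in the untreated libraries. The sums of each class did not overlap between the groups, though Lrig1 was the only LRIG gene that stood apart by itself.

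Ratios of reads between genes of 1 library do not depend on how libraries are scaled. Those given here were chosen after the values were seen. There were 1.05 and 1.55 reads of Erbb3 for each read of Lrig1 in the dTAG13 libraries, against 0.279 and 0.358 in the untreated libraries. That ratio was 3.76-fold higher with dTAG-13 within replicate number 1 and 4.33-fold higher within number 2. The ratio of Erbb2 to Lrig1 was 1.75 and 2.50 in the dTAG13 libraries, against 0.721 and 0.899 in the untreated libraries. Neither ratio overlapped between the groups. This had to follow, since Erbb3 and Erbb2 were higher and Lrig1 lower in both dTAG13 libraries, and it adds nothing to those differences. Within the receptors the balance also differed: Erbb3 had 0.597 and 0.619 reads for each read of Erbb2 in the dTAG13 libraries, against 0.386 and 0.398 in the untreated libraries, with libraries of a group nearly equal. Within the LRIG genes, Lrig1 had 0.444 and 0.539 reads for each read of Lrig3 in the dTAG13 libraries, against 0.739 and 0.836 in the untreated libraries. Both of these ratios within a class stood apart too, the first higher and the second lower in the dTAG13 libraries. Over the whole classes there were 0.643 and 1.05 receptor reads for each LRIG read in the dTAG13 libraries, against 0.339 and 0.469 in the untreated libraries. That class ratio was 1.90-fold higher with dTAG-13 within replicate number 1 and 2.25-fold higher within number 2. The groups did not overlap, as had to follow from the class sums, which stood apart in opposite directions. Between ligand and receptor, Nrg1 had 0.335 and 0.0757 reads for each read of Erbb3 in the dTAG13 libraries, against 0.834 and 0.377 in the untreated libraries. This ratio was lower in both dTAG13 libraries, by the small gap between 0.335 and 0.377, and varied widely within each group. Nrg1 by itself overlapped between the groups, while Erbb3, the lower term of the ratio, was higher in both dTAG13 libraries. Gene length sets the level of such a ratio and not its difference between groups.

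**Figure D4:**
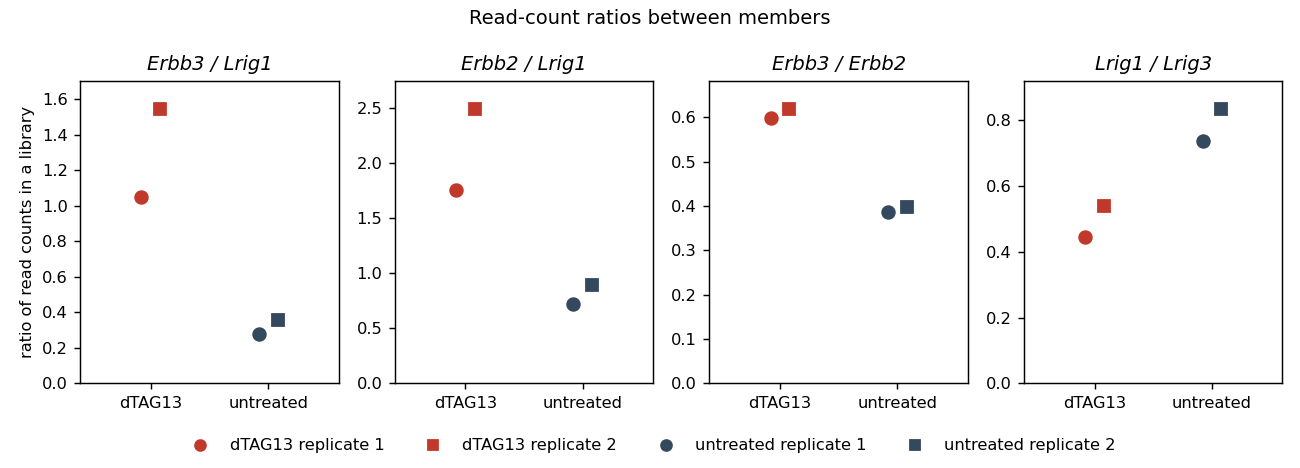
Ratio of read counts of 4 gene pairs in each library, axes from 0, with dTAG13 left in red and untreated right in dark blue (circles replicate 1, squares replicate 2). The groups stand apart for each pair, and the ratio of Erbb3 to Erbb2 varies least of the 4 within a group, at 0.597 and 0.619 with dTAG-13 and 0.386 and 0.398 untreated.

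In the fit over all genes with the group as its only term, edgeR's quasi-likelihood test called 0 of 13602 genes (0%) at an adjusted p of 0.05, while 479 genes had an unadjusted p under 0.05. DESeq2 called 41 of 12315 genes (0.333%). Both libraries of dTAG13 lay above both untreated ones for 14.4% of all genes tested, and for Erbb2 and Erbb3 of the 8. They lay below for 11.9% of all genes tested, and for Lrig1 and Erbb4 of the 8. Since the genes were picked with this contrast in view, nothing is read from these counts. As a description of size, 160 of the 13602 genes had a larger positive fold change than Erbb3, and 247 had a larger negative one than Lrig1.

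Promoter sequences were available for 6 of the 8 genes in the RefSeq table of GRCm38.p6, as windows of 300 bases from 250 before to 50 after a start site. They are shown for Erbb2 and Lrig1, which differed in opposite directions, and for Egfr, which holds a match. ZEB proteins are known to bind E-box sites with the core CACCT, often as CACCTG. The longer motif was in 0 of the 6 windows on either strand, against 20.2% of all 32851 windows. The core CACCT or its reverse AGGTG, which includes every longer match, was in 2 of the 6, against 51.9% of all windows. The matches began 123 bases before the start site in Egfr and 192 bases before it in Erbb4. The Erbb4 window lies wholly within the annotated span of that gene, so its match is not upstream of the gene as annotated. These letters being found or not in such a window says nothing of binding. The sequences run 5′ to 3′ on the strand of the gene, cover only the bases before the annotated gene, and have the match in capitals: chr11:16751953-16752202 on the plus strand for Egfr, chr11:98412234-98412483 on the plus strand for Erbb2, and chr6:94700299-94700395 on the minus strand for Lrig1.
Egfr: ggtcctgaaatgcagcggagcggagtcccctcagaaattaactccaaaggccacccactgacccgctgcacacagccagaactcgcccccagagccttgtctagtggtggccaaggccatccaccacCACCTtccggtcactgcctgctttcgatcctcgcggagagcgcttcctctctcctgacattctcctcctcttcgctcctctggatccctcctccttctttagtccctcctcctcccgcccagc
Erbb2: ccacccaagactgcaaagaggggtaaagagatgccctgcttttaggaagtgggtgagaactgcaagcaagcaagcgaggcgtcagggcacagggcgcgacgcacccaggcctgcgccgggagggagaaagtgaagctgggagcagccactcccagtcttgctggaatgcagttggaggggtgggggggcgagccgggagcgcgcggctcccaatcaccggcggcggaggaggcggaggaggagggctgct
Lrig1: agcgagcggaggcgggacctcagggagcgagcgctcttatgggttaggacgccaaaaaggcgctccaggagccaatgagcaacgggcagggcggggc
The windows were rich in G and C, with 62.3% in Egfr, 66.0% in Erbb2 and 73.0% in Lrig1, against a median of 52.7% over all windows.

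Among the neighbours of the 8 genes, Grb7 and Mien1 at Erbb2, Ikzf2 near Erbb4 and Slc16a1 beside Lrig2 were higher in both dTAG13 libraries. Both dTAG13 libraries lay above both untreated ones for 14.4% of all genes tested. Sec61g and Fbxo48 beside Egfr, Magi1 beside Lrig1 and Fut10 beside Nrg1 were lower in both, as were 11.9% of all genes tested. The other neighbours tested overlapped between the groups. Grb7, whose adaptor protein binds ERBB receptors, begins 9.1 kb past Erbb2. It had 69.2 and 117 CPM in the dTAG13 libraries, against 48.6 and 66.8 CPM in the untreated libraries, a log2 fold change of 0.69 ± 0.30 (edgeR adjusted p = 1.00). The groups of Grb7 did not overlap, by the small gap between 69.2 and 66.8 CPM. Mien1, whose annotated span takes in Grb7 and overlaps the last bases of Erbb2, had a log2 fold change of 0.37 ± 0.17, and Pgap3 on the other side had 0.25 ± 0.29 (both edgeR adjusted p = 1.00). Pa2g4, which encodes a protein first found by its binding to ERBB3, lies 1.6 kb from Erbb3. It had 492 and 535 CPM in the dTAG13 libraries, against 489 and 557 CPM in the untreated libraries, and its groups overlapped. Near Erbb4, Ikzf2, a zinc finger gene of lymphocytes, had 30.4 and 37.2 CPM in the dTAG13 libraries, against 21.6 and 19.1 CPM in the untreated libraries (log2 fold change 0.73 ± 0.18, edgeR adjusted p = 0.844). Neighbours of the LRIG genes and of Nrg1 had values of mixed sign, none with an edgeR adjusted p under 0.05. Those of Lrig1 had log2 fold changes of -0.20 for Magi1 and 0.046 for Kbtbd8. Slc16a1 beside Lrig2, a transporter of lactate, had 726 and 566 CPM in the dTAG13 libraries, against 542 and 465 CPM in the untreated libraries (log2 fold change 0.36 ± 0.18). Its groups did not overlap, by a small margin. Fut10 beside Nrg1 had a log2 fold change of -0.37 ± 0.20, and Fbxo48 beside Egfr had -0.60 ± 0.36. The others tested were Rps26 (0.061), Sec61g (-0.15), Magi3 (0.17), Slc16a7 (0.89 ± 0.68), Atp23 (0.015) and Wrn (-0.028), while Cps1 had too few reads. Lrig1 ends within Slc25a26, which had a log2 fold change of -0.091 ± 0.31, and non-coding genes that overlap Egfr, Erbb4, Lrig3 and Nrg1 in the annotation were not analysed here. No source used here gives the strand setting of the counting, so how reads of overlapping genes were counted is not known. Reads marked as ambiguous made up 0.209% to 0.240% of a library's reads in genes, outside genes or ambiguous. They entered no gene's count.

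Of the other genes of ERBB signalling, 0 of the 86 tested passed an adjusted p of 0.05 in edgeR, where 0% of all genes did. In that fit, which had the group as its only term, 3 had an unadjusted p under 0.05. DESeq2 called 0 of 82. A block for the replicate number changed the edgeR count, as given in the last section. Ligands of the family had the widest values. Of 10 other EGF-family ligands, 5 had enough reads to be tested, with a median log2 fold change of 0.23. Tgfa, a ligand of EGFR, had 31.8 and 14.7 CPM in the dTAG13 libraries, against 14.9 and 8.89 CPM in the untreated libraries, so the groups overlapped by a small margin (log2 fold change 0.96 ± 0.46, edgeR adjusted p = 1.00). Nrg2, a second neuregulin, was the ligand furthest in the other direction, with 0.511 and 0.594 CPM in the dTAG13 libraries, against 1.58 and 1.51 CPM in the untreated libraries (log2 fold change -1.47 ± 0.52, edgeR adjusted p = 1.00). These values rest on few reads, since 1 read was worth 0.0753 to 0.0889 CPM. Nrg2 passed the filter on low counts through the untreated libraries, and DESeq2 gave it no adjusted p. Egf and Nrg4 had log2 fold changes of 0.33 ± 0.38 and 0.23 ± 0.47. Areg had 0 reads in every library, and Ereg, Epgn, Btc and Nrg3 had at most 0.452 CPM in any.

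Of the proteases that release these ligands and their partners, 9 were listed, 8 were in the tables under their symbols and 7 were tested, with a median log2 fold change of 0.071. Rhbdf1, an inactive rhomboid that guides the protease ADAM17, had 28.3 and 41.8 CPM in the dTAG13 libraries, against 26.3 and 20.7 CPM in the untreated libraries (log2 fold change 0.57 ± 0.24, edgeR adjusted p = 1.00). Rhbdf2, its paralog, had 0.20 ± 0.16, Adam19 had 0.18 ± 0.34 and Adam9 had -0.10 ± 0.15.

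Of 17 other inhibitors and degradation factors of the receptors, all tested, 10 lay above untreated and 7 below, with a median of 0.044. Cblc, an epithelial member of the CBL ubiquitin ligases, had 2.05 and 4.33 CPM in the dTAG13 libraries, against 1.20 and 2.13 CPM in the untreated libraries (log2 fold change 0.94 ± 0.55). Hgs and Stam2, which sort ubiquitinated receptors in endosomes, had 0.23 ± 0.14 and 0.17 ± 0.14, and Ptpn1, a tyrosine phosphatase, had -0.17 ± 0.14. Of these 17 genes, none approached the size of the difference of Lrig1 in its direction, the lowest being Ptpn1.

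Of 39 adaptors and signal relays, 38 were tested, with 25 above untreated, 13 below and a median of 0.060. Gab1, a docking protein for PI3 kinase, had 161 and 178 CPM in the dTAG13 libraries, against 147 and 148 CPM in the untreated libraries (log2 fold change 0.20 ± 0.13). Braf, a kinase of the ERK cascade, had a log2 fold change of 0.19 ± 0.13 and Shc3, an adaptor of neural tissue, of -0.85 ± 0.48. Of 20 genes that respond to ERK, 19 were tested, with a median of 0.028. Spry1, a feedback inhibitor of receptor tyrosine kinases, had 51.0 and 50.3 CPM in the dTAG13 libraries, against 34.2 and 32.7 CPM in the untreated libraries, and its log2 fold change of 0.60 ± 0.14 did not pass (edgeR adjusted p = 0.79). Dusp5, a phosphatase of ERK, had 0.43 ± 0.23, Ier2 0.35 ± 0.19 and Etv5, an ETS factor, 0.27 ± 0.16.

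**Figure D5:**
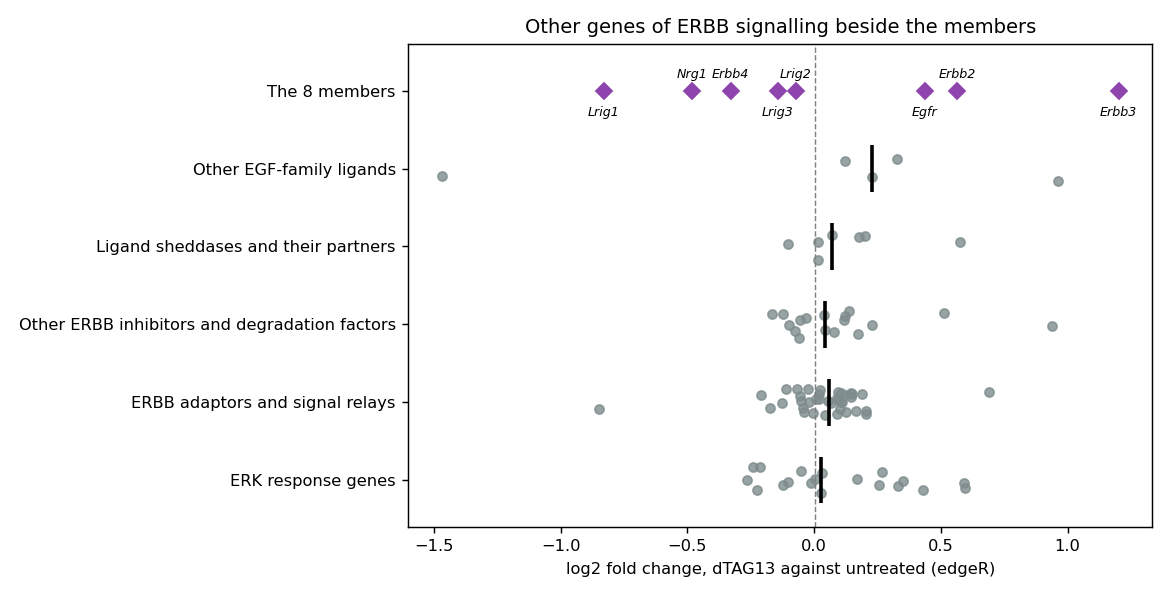
Log2 fold change (dTAG13 against untreated, edgeR) of the tested genes of 5 lists of ERBB signalling, grey points, with the list's median as a black bar, below the 8 genes described here (diamonds). The dashed line is the median of all genes tested. List medians lie between 0.028 and 0.23, and Erbb3 at 1.20 lies beyond every other gene plotted on the high side.

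Summed markers of epithelium, surface ectoderm, gut endoderm and neural tube progenitors did not overlap between the groups, while edgeR called 0 of their genes. Gut endoderm markers differed least, with sums of 472 and 483 CPM in the dTAG13 libraries, against 444 and 438 CPM in the untreated libraries. Of the 9 tested, 7 lay above untreated and 2 below, and DESeq2 called 0. DESeq2 called 6 of the 20 epithelial markers (Krt8, Krt18, Cldn6, Cldn7, Rab25 and Ap1m2) and the surface ectoderm marker Dlx5 above untreated. It called the neural tube markers Sox1, Irx3 and Ptn and 1 somite marker below untreated, where it called 0.333% of all genes. Of the 13 somite markers tested, 12 lay below untreated, and their sums overlapped between the groups. All 20 markers of epithelium on the list lay above untreated, where 6926 of the 13602 genes tested did, with a median log2 fold change of 1.30. The marker lists were chosen with earlier results of these data known, so nothing is read from such counts. The epithelial markers summed to 1387 and 2607 CPM in the dTAG13 libraries, against 773 and 1078 CPM in the untreated libraries. Erbb3 had 42.6 and 33.1 CPM for every 1000 CPM of that sum in the dTAG13 libraries, against 36.4 and 32.6 CPM in the untreated libraries, so these values overlapped. Within each replicate number the dTAG13 value was the higher, by a small margin within number 2. Erbb2 had 71.3 and 53.4 CPM for every 1000 CPM in the dTAG13 libraries, against 94.3 and 81.9 CPM in the untreated libraries, lower in both dTAG13 libraries. Egfr had 8.66 and 5.37 CPM for every 1000 CPM in the dTAG13 libraries, against 9.15 and 11.3 CPM in the untreated libraries, and so was lower on this scale too. Surface ectoderm markers, of which 10 of 12 were tested and all 10 lay above untreated, summed to 168 and 336 CPM with dTAG-13, against 88.2 and 149 CPM untreated. Of those 10, 4 were higher in both dTAG13 libraries, as were 14.4% of all genes tested, and the others overlapped. Tfap2c, the largest part of the sum, overlapped, with 55.8 and 157 CPM in the dTAG13 libraries, against 32.2 and 76.7 CPM untreated. The part of these tissues in the levels of the receptors was not tested.

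ERBB3 is also known from neural crest, whose 12 markers summed to 206 and 122 CPM in the dTAG13 libraries, against 188 and 142 CPM in the untreated libraries, with overlap. Of the 8 tested, 3 lay above untreated and 5 below, and edgeR and DESeq2 called 0. Sox9, which other tissues also express, had 70.1 and 50.5 CPM in the dTAG13 libraries, against 39.6 and 29.5 CPM in the untreated libraries. Tfap2b had 1.19 and 1.61 CPM in the dTAG13 libraries, against 0.602 and 0.622 CPM in the untreated libraries. Both were higher in each dTAG13 library, while Cdh6 was lower in each and Ets1, Snai2, Ngfr and Twist1 overlapped. Among those with too few reads to test, Foxd3 had 0 reads in every library and Sox10 had at most 0.452 CPM in any. The part of neural crest in the level of Erbb3 was not tested. Neural tube progenitor markers summed to 251 and 293 CPM in the dTAG13 libraries, against 381 and 549 CPM in the untreated libraries, while those of the somites are given above. Both sums were lower with dTAG-13 within each replicate number. For every 1000 CPM of the neural tube sum Lrig1 had 225 and 190.5 CPM in the dTAG13 libraries, against 265 and 179 CPM in the untreated libraries. For every 1000 CPM of the somite sum it had 170.4 and 317 CPM in the dTAG13 libraries, against 207 and 353 CPM in the untreated libraries. Both ratios overlapped between the groups. Within each replicate number the somite ratio was lower with dTAG-13. The neural tube ratio was lower with dTAG-13 within number 1 and higher within number 2. The part of these tissues in the level of Lrig1 was not tested.

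The genes most like the members were found among the others whose log2 CPM averaged 1 or more, 12436 genes for each member but Erbb4, by the root mean square difference of centred log2 CPM over the 4 libraries. For Erbb3 they were Gramd1c (0.048), Rassf4 (0.050) and Marveld2 (0.056), of which Marveld2 encodes tricellulin, a protein of junctions where 3 epithelial cells meet. Marveld2 had 21.8 and 35.0 CPM in the dTAG13 libraries, against 11.4 and 13.7 CPM in the untreated libraries. For Lrig1 they were Mxra7 (0.045), Gm10406 (0.053) and Onecut2 (0.072), a transcription factor of neurons among other cells. For Erbb2 they were Nav2 (0.029), Nat2 (0.031) and Lrrk1 (0.034), and for Egfr they were Mme (0.049), the mitochondrial gene ND5 (0.058) and Ccdc92 (0.061). The profiles of Lrig2 and Lrig3, nearly level over the libraries, were shared by the most genes, with Lmln, Cux1 and Polr2g nearest to Lrig2 and Dync1li2, Itpr1 and Ntpcr nearest to Lrig3. Those nearest to Erbb4, at its few reads, were Lats2, Wdr78 and Lrrn1. The profile of Nrg1 was the least common, with 3 genes within 0.1 of it (Dchs1, Sting1 and Tal1), against 7 for Erbb3, 15 for Lrig1 and 1698 for Lrig2. Only 4 libraries enter this measure.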

How the data were processed

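Per the labels' protocols, DNase-treated total RNA was depleted of ribosomal RNA and made into libraries with a KAPA HyperPrep kit. Per the submitters' processing notes, which give no roles, the tools were STAR 2.7.6a, HTSeq 0.12.4, fastp 0.20.1 and DESeq2 1.34.0. The build is GRCm38.p6 (mm10). The authors deposited raw read counts per gene symbol, 1 table a library, while the sources used here do not give their annotation. Summary lines of HTSeq entered neither library sizes nor tests.

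Groups came from the titles. The counts were fitted with edgeR 4.0.16 in R 4.3.3 (filterByExpr with minimum count 10 and minimum total 15, TMM factors, robust glmQLFit, two-sided glmQLFTest, group as the only term), with Benjamini-Hochberg adjustment over 13602 genes and a threshold of 0.05. DESeq2 1.42.0 was an alternative. Each standard error is the size of the log2 fold change over the square root of F. The biological coefficient of variation was 21.7%. An exact permutation test of 2 against 2 libraries cannot go below a two-sided p of 0.333, so none was run. Differences within a replicate number are of log2 CPM with a prior count of 2. The script was tested on simulated counts that varied less between libraries than these data and held no difference between replicate numbers. That test checks the code and not how many changes the fit could call here.

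Exon lengths are unions over GENCODE M21 exons, and positions and promoters are from RefSeq. The members and lists were chosen with earlier results of these data known. In each pathway list up to 4 genes were named, by smallest p among those whose log2 CPM averaged 0 or more, as were the nearest coding neighbours and the 3 genes of most alike profile for each member. Areg, Ereg, Epgn, Btc, Nrg3 and single markers were named after their values were seen, and the gene ratios and the levels per marker sum were chosen then too. Replicates of a group differed beyond sampling noise (chi-square per degree of freedom 30.9 between dTAG13 libraries, 36.3 between untreated libraries). Some markers are not reported here by name.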

Additional observations from a re-analysis of the deposited data

How the results depend on the processing

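Each of the 8 genes kept the sign of its log2 fold change under RLE, upper quartile or no scaling factors, no filter, DESeq2 and the replicate block, and, apart from Erbb4, which it leaves out, with at least 50 counts. Scaling moved the median of all genes by less than 0.1. Leaving out single libraries turned the signs of Lrig2 and Nrg1, as given above. The receptor median, 0.50 with all libraries, then ranged from 0.25 (without untreated replicate 1) to 0.79 (without untreated replicate 2), and the LRIG median, -0.14, from -0.30 (without dTAG13 replicate 1) to -0.023 (without dTAG13 replicate 2). DESeq2 called 41 genes where edgeR called 0, and leaving out any 1 library or changing factors or filter left edgeR's count at 0. A block for the replicate number gave 636 edgeR calls over 13602 genes (4.68%), with 5 of the 86 other ERBB pathway genes (Errfi1, Grb7, Rhbdf1, Spry1 and Tgfa, all above untreated). Over 12437 genes, the difference between replicate numbers correlated between the groups at 0.65, but the labels give the numbers no meaning, so the block stayed out of the main test. Promoters with a motif were 0 for CACCTG and 2 for the shorter core. At 8 to 11 reads, depth limits Erbb4.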
